A study of Canis lupus familiaris with 33 samples.

Results

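Canine invasive urothelial carcinomas (iUC) were ordered by the RNA level of 5 T-cell genes, and the 10 tumors with the highest level, called T-cell-rich, were set against the 10 with the lowest, called T-cell-poor. Both groups were taken from the 29 tumors of a series of 33 samples, and 9 tumors fell in neither group. The T-cell score of a tumor was the mean of its deposited values for CD3D, CD3E, CD2, CD5 and CD8A. The groups were therefore picked on measured RNA and not on a label, and the 5 scoring genes were left out of every comparison below. Each tumor was a high-grade, naturally occurring bladder iUC taken by cystoscopic biopsy from a different untreated dog of any age, sex or breed, and the tissues had been selected for high epithelial cellularity. The 4 control samples were bladder mucosa dissected from dogs without bladder disease. Each deposited value is the log2 of a normalized level from which the gene's own median across the 33 samples has been subtracted, so 0 is the median sample and a difference of 1 is a 2-fold change.

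A T cell recognizes antigen through a receptor of paired variable chains that are carried to the surface by the CD3 proteins. CD4 or CD8 holds the antigen-presenting molecule, and the kinases LCK and ZAP70 pass the signal on through the adaptor LAT. CD8 T cells and natural killer cells kill target cells with granzymes and perforin, whereas regulatory T cells restrain responses. In many carcinomas tumors with abundant T cells, often called inflamed, are told apart from tumors with few. Inflamed tumors often also hold B cells, chemokines and products of interferon-gamma, the main cytokine of type 1 immunity.

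The T-cell score ran from 0.56 to 2.94 in the T-cell-rich tumors, with a median of 1.29, and from -1.97 to -0.86 in the T-cell-poor tumors, with a median of -1.33. Tumor 15 was the last of the T-cell-rich tumors at 0.56, and the next tumor, Sn, lay at 0.50. Tumor 18 was the first of the T-cell-poor tumors at -0.86, and its neighbour outside the group, tumor 2, lay at -0.68. Both borders were thus drawn within a continuous range of scores. The 5 genes lay mostly on the same side of 0 within both groups, which picking tumors on their mean favours. Most of the 9 tumors in neither group had genes on both sides of 0, as in tumor 16, with CD3E at -0.84 and CD8A at 0.84. All 5 genes lay above 0 in 9 of the 10 T-cell-rich tumors, the exception being CD8A in tumor JE at -0.09. None lay above 0 in any of the 10 T-cell-poor tumors. CD8A, the alpha chain of the CD8 co-receptor, was spread most widely in the T-cell-poor tumors, from -3.63 to -0.83. The 4 normal mucosa samples had scores of 0.18, 0.22, -0.20 and 0.47, between both groups of tumors.

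**Figure D1:**
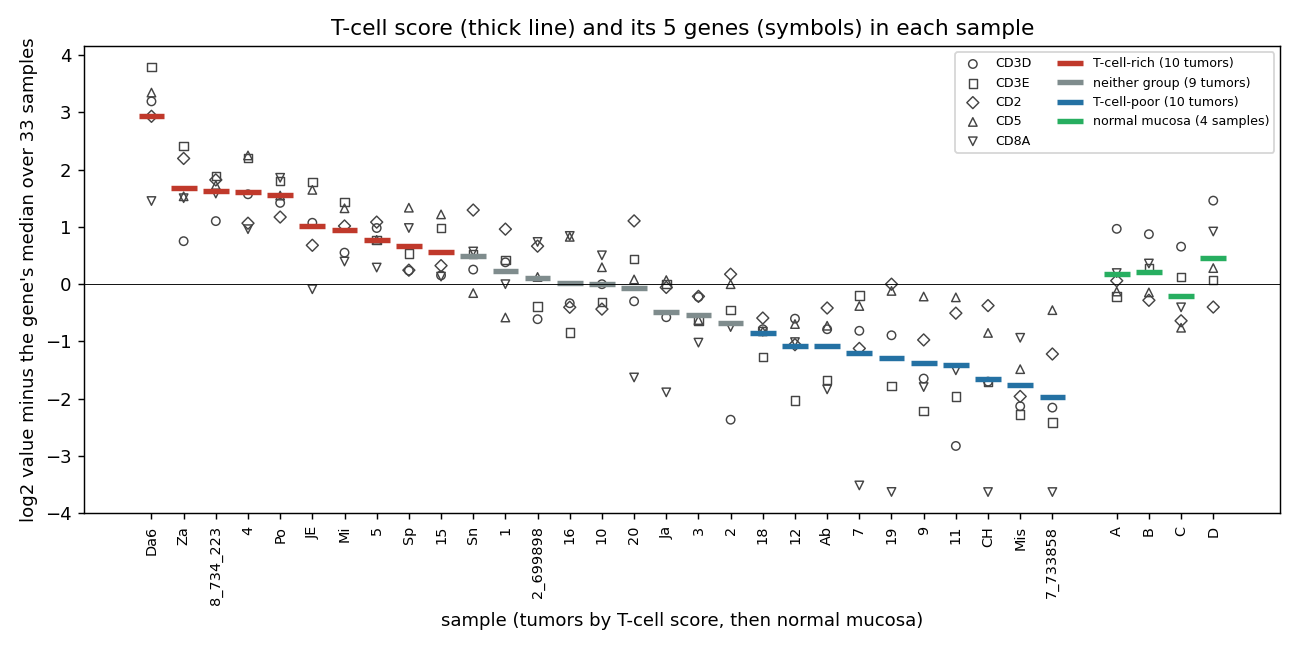
T-cell score (thick lines, log2) and the deposited values of its 5 genes (symbols) in each of the 29 tumors, ordered by score, and in the 4 normal mucosa samples. The T-cell-rich tumors lie between 0.56 and 2.94, the T-cell-poor tumors between -1.97 and -0.86, and tumor Da6 stands apart at the top.

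One tumor stood apart within the T-cell-rich group: Da6 scored 2.94, and the next tumor, Za, scored 1.68. Library measures overlapped between the groups. The share of 137 olfactory receptor genes, which bladder is not known to use, that lay above their lowest value ranged from 14.6% to 92.0% in the T-cell-rich tumors and from 7.30% to 77.4% in the T-cell-poor tumors, and it was highest in tumors 5, Po and 9. The value of 1 read, taken from the lowest steps of each sample, was 1.83 to 2.48 normalized units in the T-cell-rich and 1.64 to 2.22 in the T-cell-poor tumors. In the normal samples all of the olfactory receptor genes lay above their lowest value. Sequencing depth itself, as a total of reads, is not held by the values used here.

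Along the T-cell score, 420 genes rose and 15 fell among 19233 genes tested, which is 2.18% and 0.078% of them. A gene is called here when its slope on the score over the 29 tumors passed an adjusted p of 0.05 in limma, a linear model fitted across all genes, and the means of the 10 T-cell-rich and the 10 T-cell-poor tumors differed by at least 1 on the log2 scale in the same direction. Of the genes called higher, 303 had a gene name and 117 did not, and of those called lower 4 had one and 11 did not. The values of all 10 T-cell-rich tumors lay above those of all 10 T-cell-poor tumors for 31 genes, or 0.161% of those tested, and each of them was among the genes called higher. The median difference over all genes was 0.02. Of 83 olfactory receptor genes tested, which bladder is not known to use, 4 were called higher, against 420 of all 19233.

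The number of calls rested in good part on tumor Da6. Without it 209 genes were called higher, 201 of them among the 420, and 2 were called lower. Leaving out any other single tumor moved neither count by more than 1.5 times. With the 20 tumors compared as groups and not along the score, 217 genes were higher and 3 lower. Within the 9 tumors in neither group, whose scores spanned only -0.68 to 0.50, no gene passed in limma and 863 of 19218 had an unadjusted p under 0.05. Of the 217 genes higher between the groups of 10, 53.5% had a positive slope over those 9 tumors, against 53% of all genes, and 4.15% had a positive slope with an unadjusted p under 0.05, against 2.42% of all genes.

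**Figure D2:**
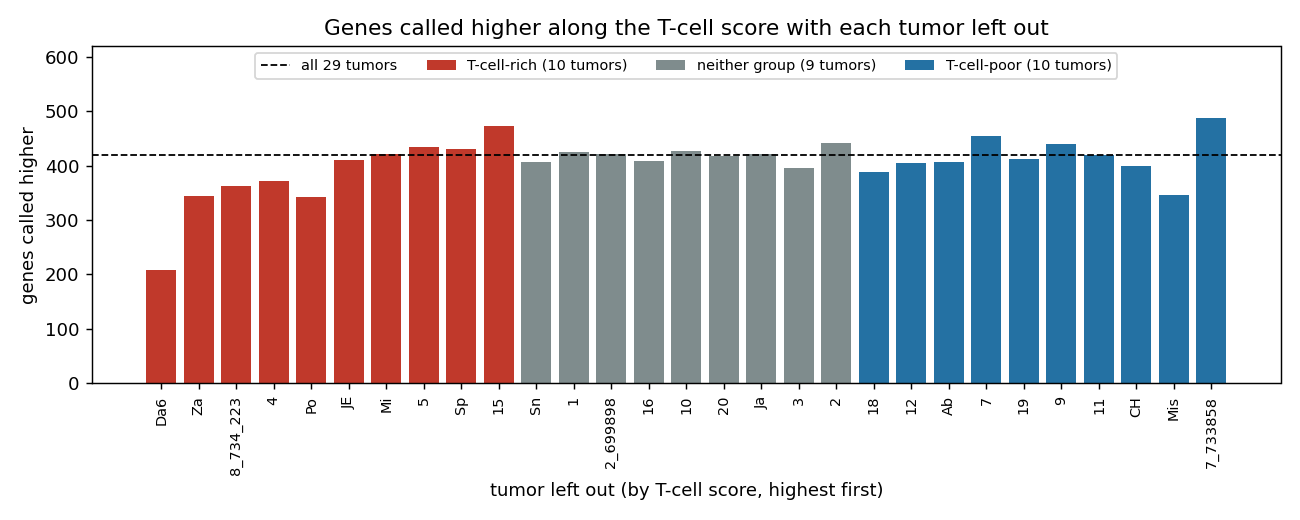
Number of genes called higher along the T-cell score (vertical axis, from 0) when each of the 29 tumors in turn was left out, ordered from the highest score. Bars are coloured by group and the dashed line marks 420 genes with all tumors. Leaving out Da6 gave 209 genes, and leaving out any other tumor gave between 343 and 488.

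Genes of the T-cell receptor and of T-cell identity rose almost as a body. Of 18 members tested other than the scoring genes, 15 were called higher, with a median difference of 2.50. The mean of the 18 genes lay between 0.20 and 2.53 in the T-cell-rich tumors and between -1.73 and -0.55 in the T-cell-poor tumors, without overlap. These genes mark the same cells as the score and so serve as a check of it. Over the 9 tumors in neither group, 14 of the 18 had a positive slope. In RNA from whole biopsies, fewer cells of a type and less RNA per cell cannot be told apart, here and in every result below.

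CD3G, which encodes a further CD3 chain, had values of 0.48 to 3.73 (median 1.24) in the T-cell-rich tumors and -3.06 to -0.39 (median -1.73) in the T-cell-poor tumors. It rose by 1.15 ± 0.08 (SE) on the log2 scale per unit of score (limma adjusted p = 3.37e-11). LCK, the kinase that starts receptor signalling, ranged from 0.37 to 2.89 (median 1.32) against -2.05 to -0.54 (median -1.01). Its slope was 0.93 ± 0.06 (SE), with an adjusted p of 2.75e-12. The groups overlapped for neither gene, and they also did not for ZAP70, LAT, CD6 and THEMIS.

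THEMIS, which T cells need for their development in the thymus, showed the widest gap of the T-cell genes, 3.93, from a median of 1.60 in the T-cell-rich to -1.92 in the T-cell-poor tumors. Of the T-cell-poor tumors, 2 were at its lowest value, where few or no reads were found. In the 4 normal samples THEMIS ran from 3.23 to 3.67, above every T-cell-rich tumor, whereas LCK ran from -0.04 to 0.70. The gap was 2.93 for LAT and 3.02 for CD6, a receptor at the contact with antigen-presenting cells. ZAP70 rose with a difference of 2.54 (adjusted p = 9.23e-04). IL2RB, a chain of the interleukin 2 receptor, CD7 and SIT1 also rose, with differences of 2.76, 2.69 and 2.65. CD8B, the partner of CD8A, differed by 1.60 (adjusted p = 0.00123). The 3 members that were not called were SLA2 (1.05, adjusted p = 0.067), SKAP1 (0.84, adjusted p = 0.12) and TCF7 (0.13, adjusted p = 0.933). TCF7 encodes TCF-1, a factor of naive and memory T cells that epithelia can also use, and its values ran from -1.18 to 2.74 in the T-cell-rich and from -0.90 to 1.93 in the T-cell-poor tumors. Without Da6, 13 of the 15 stayed called, and BCL11B (adjusted p = 0.117) and IL7R (adjusted p = 0.126) were lost. IL7R was lost in 9 of the 29 fits that each left out 1 tumor.

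Segments of the T-cell receptor itself were also mostly called higher. These were grouped after their names had been seen among the results. Of 13 segment genes tested, 10 were called higher, 9 without Da6 and 6 between the groups of 10. The one lost without Da6, TRAV29DV5 (adjusted p = 0.2), was lost in 11 of the 29 fits that left out 1 tumor. TRAC, the constant part of the alpha chain, had values of 0.78 to 4.33 (median 1.98) in the T-cell-rich and -2.63 to -0.05 (median -0.62) in the T-cell-poor tumors, with no overlap (slope 1.10 ± 0.08 SE, adjusted p = 3.37e-11). TRBV16 and TRBV3-1, variable segments of the beta chain, differed by 3.54 and 3.53. TRBV16 was at its lowest value in 3 of the T-cell-poor tumors and TRBV3-1 in 4, and none of the T-cell-rich tumors was. TRAV29DV5, TRAV21, TRAV24, TRAV26-2, TRBV15, TRBV25-1 and TRBV13 were at theirs in 9, 8, 7, 7, 7, 6 and 6 of the T-cell-poor tumors. These genes met the filter of 10 tumors above the lowest value mostly through tumors outside that group, so their calls are no separate support. In the 4 normal samples TRAV26-2 ran from 4.59 to 5.60, whereas TRAC ran from -0.60 to -0.07. TRDC, the constant part of the delta chain of gamma-delta T cells, was not called, with a difference of 0.94 (adjusted p = 0.462). Variable segments resemble each other closely, so reads may have been shared between them and single segments are uncertain. CD4, the co-receptor of helper T cells, was not analysed here.

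Cytotoxic genes split in their size of change. Of 15 members tested, 5 were called higher and the list median was 0.89. GZMK, a granzyme of memory-like CD8 T cells, ranged from 0.71 to 2.66 (median 1.80) in the T-cell-rich tumors and from -5.90 to -0.10 (median -1.93) in the T-cell-poor tumors. The groups did not overlap, and the difference was 4.21 with a slope of 1.41 ± 0.18 (SE, adjusted p = 4.25e-06). TBX21 and EOMES, the T-box factors that direct the effector programme, differed by 2.97 and 2.68 (adjusted p = 6.82e-06 and 3.61e-04). GZMB, the granzyme of armed killer cells, ranged from -0.71 to 1.95 (median 0.78) against -4.26 to 0.44 (median -2.39), a difference of 2.81 (adjusted p = 0.00157). FASLG, a death ligand, differed by 1.76 (adjusted p = 1.02e-05).

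Other killing genes moved less or were too variable to be called. GZMA had values of -1.55 to 2.88 (median 0.63) in the T-cell-rich and -4.52 to 0.86 (median -1.34) in the T-cell-poor tumors, and its difference of 1.95 gave an adjusted p of 0.0624. PRF1, which encodes perforin, passed the p threshold (0.0129) with a difference of 0.89, under the 1 required. It did not pass without Da6 (adjusted p = 0.132) or with the tumors as groups of 10 (0.134). IFNG, which encodes interferon-gamma, differed by 1.44 (adjusted p = 0.0821), and 5 of the T-cell-poor tumors and 1 of the T-cell-rich tumors were at its lowest value. The normal samples had IFNG values of 4.64 to 5.69. CTSW and SRGN, which encode a cathepsin and a proteoglycan of cytotoxic granules, differed by 0.06 and -0.04. All 5 called members stayed called without Da6, and 14 of the 15 had a positive slope over the 9 tumors in neither group.

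**Figure D3:**
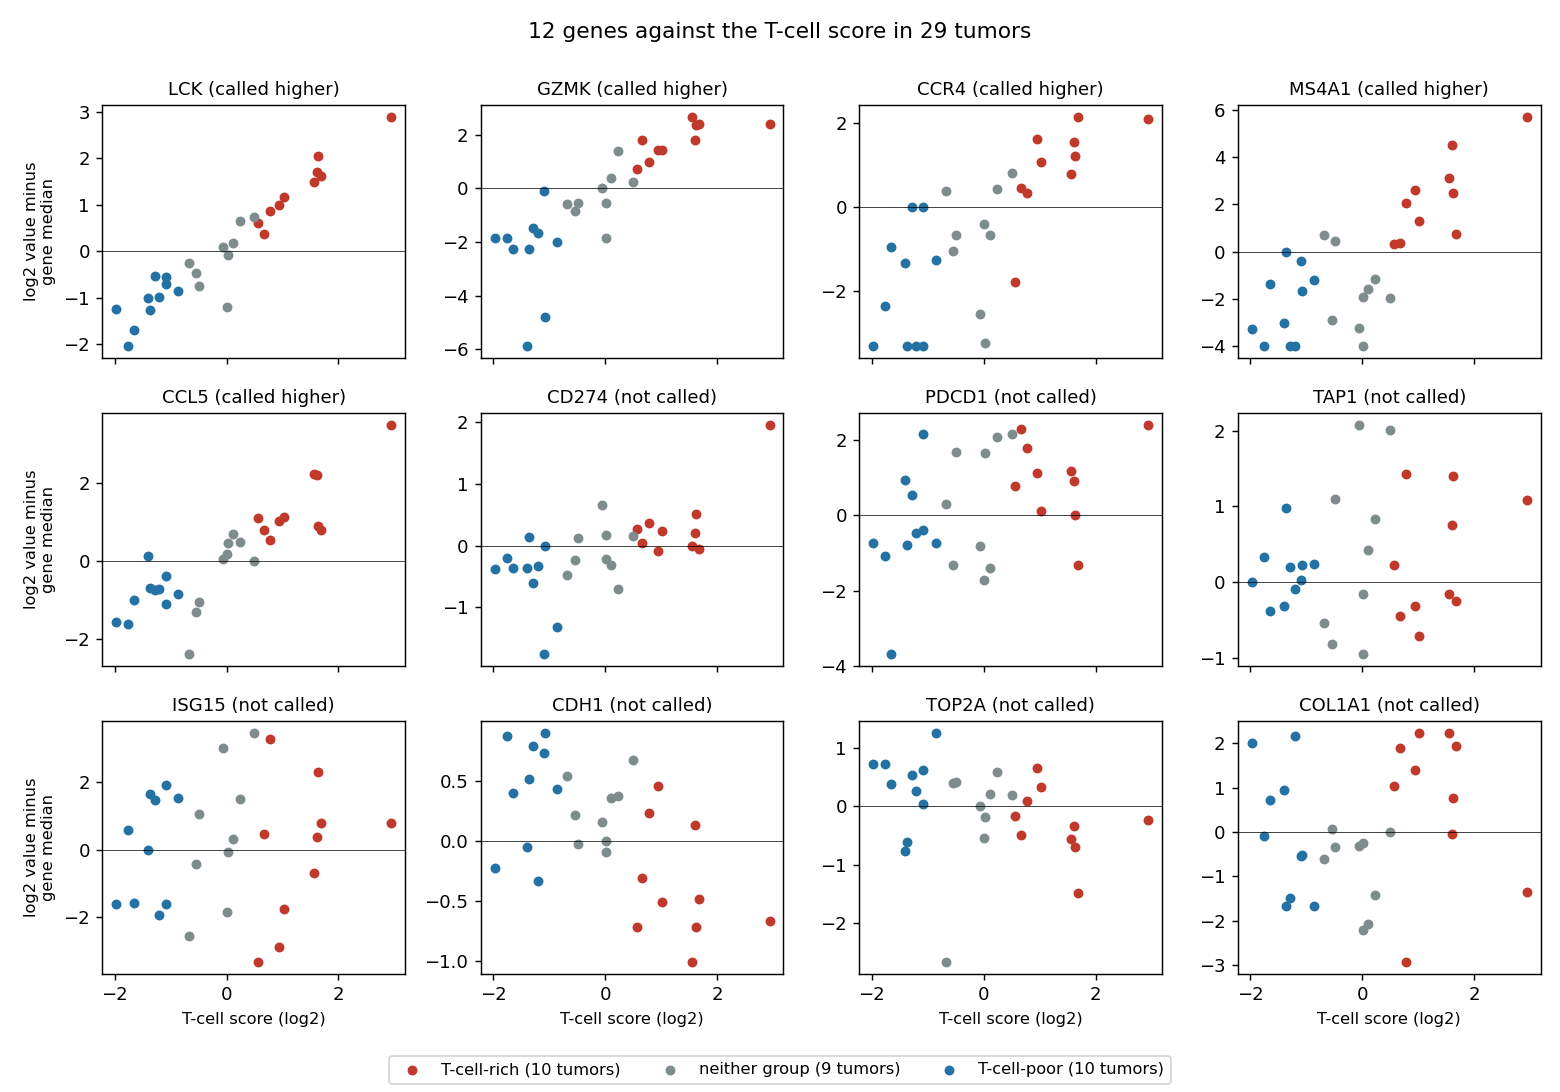
Deposited values (log2 minus the gene median) of 12 genes against the T-cell score in 29 tumors, coloured by group. LCK, GZMK, CCR4, MS4A1 and CCL5 were called higher; CD274, PDCD1, TAP1, ISG15, CDH1, TOP2A and COL1A1 were not, and the value of CD274 at the right end, 1.96, is that of Da6 alone.

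Genes of regulatory T cells and of the chemokine receptor CCR4 rose in part. Of 12 members tested, 7 were called higher, with a list median of 1.35. CCR4, which draws regulatory and type 2 helper T cells toward its ligands, ranged from -1.80 to 2.15 (median 1.14) in the T-cell-rich tumors and from -3.34 to 0.00 (median -1.85) in the T-cell-poor tumors. Its slope was 1.05 ± 0.18 (SE, adjusted p = 4.78e-04), 4 of the T-cell-poor tumors were at its lowest value, and among the T-cell-rich tumors only tumor 15 fell within the range of the others. The ligands of CCR4 did not follow it. CCL17 ran from -2.43 to 3.03 (median -0.12) in the T-cell-rich and from -1.55 to 4.84 (median 1.04) in the T-cell-poor tumors (difference -1.25, adjusted p = 0.744). CCL22 differed by 0.89 (adjusted p = 0.324).

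Of the activation receptors in that list, TNFRSF9 (4-1BB) differed by 2.55, TNFRSF4 (OX40) by 2.09, IL2RA (CD25) by 1.64 and TNFRSF18 (GITR) by 1.55. BATF, a factor of activated T cells, differed by 1.37, and IL10, a cytokine that damps inflammation, by 1.33 (adjusted p = 3.24e-04 and 1.93e-05). TNFRSF9 was at its lowest value in 6 of the T-cell-poor tumors. CCR8, found on regulatory T cells in tumors, differed by 1.09 and was not called (adjusted p = 0.241). FOXP3, the defining factor of regulatory T cells, was not analysed here. Without Da6 the calls of TNFRSF4, IL2RA and TNFRSF18 were lost (adjusted p = 0.183, 0.0874 and 0.238), and 4 of the 7 remained. Compared as groups of 10, the tumors gave 2 calls among the 12 genes.

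Checkpoint genes were mostly not called. Only PDCD1LG2, which encodes the ligand PD-L2, was called among 9 members tested, with a difference of 1.40 (slope 0.57 ± 0.11 SE, adjusted p = 0.00138). Its values ran from -0.75 to 2.10 (median 0.31) in the T-cell-rich and from -2.40 to 0.15 (median -0.85) in the T-cell-poor tumors. With the tumors as groups of 10 it was not called (adjusted p = 0.0812), and no checkpoint gene was. CD274, which encodes PD-L1, passed the p threshold (0.0181) with a difference of 0.86, under the 1 required. Its value was 1.96 in Da6, and the next T-cell-rich tumor had 0.51. Without Da6 CD274 no longer passed the p threshold (adjusted p = 0.249, difference 0.69). PDCD1, which encodes the receptor PD-1, overlapped widely, at -1.31 to 2.41 (median 1.03) against -3.70 to 2.18 (median -0.60), with a difference of 1.35 (adjusted p = 0.215). HAVCR2, which encodes TIM-3, differed by 0.69 (adjusted p = 0.0835). IDO1, an enzyme that depletes tryptophan, differed by 0.33 (adjusted p = 0.62) with T-cell-rich values from -1.60 to 5.55, and by -0.13 without Da6. CTLA4, TIGIT and LAG3 were not analysed here.

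B-cell and plasma-cell genes had the largest single differences of any list. Of 17 members tested, 9 were called higher, with a median difference of 1.79. MS4A1, which encodes the B-cell antigen CD20, ranged from 0.31 to 5.69 (median 2.25) in the T-cell-rich tumors and from -4.00 to 0.00 (median -2.33) in the T-cell-poor tumors. The groups did not overlap, 3 of the T-cell-poor tumors were at its lowest value, and the difference was 4.60 (slope 1.66 ± 0.25 SE, adjusted p = 6.62e-05). CD79A, a signalling chain of the B-cell receptor, had -0.04 to 6.85 (median 1.71) against -3.87 to -0.04 (median -1.68). Its groups met at their edges without overlapping, and the difference was 3.81 (adjusted p = 1.01e-06).

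MZB1, a chaperone of antibody-secreting cells, differed by 4.25 and JCHAIN, the chain that joins antibody units, by 3.35 (adjusted p = 4.05e-04 and 0.00469). Both were highest in Da6, at 8.79 and 8.77. IGKV2D-26, an immunoglobulin light-chain segment outside the lists, differed by 4.87 (adjusted p = 0.00292) but reached 5.00 in tumor 18, a T-cell-poor tumor. POU2AF1, a B-cell transcriptional co-activator, differed by 3.49 (adjusted p = 0.00823) and reached 5.26 in tumor 11, also T-cell-poor. IGHM, the constant part of IgM, differed by 4.21 and was not called (adjusted p = 0.0723), with T-cell-rich values of -0.13 to 9.67. BLK, a B-cell kinase, was called with 2.63, whereas PAX5, the factor that fixes B-cell identity, had 1.79 (adjusted p = 0.109). Without Da6, 5 of the 9 members stayed called, and POU2AF1 (adjusted p = 0.132) and CD79B (0.199) were among those lost. With the tumors as groups of 10, 4 of the 17 were called, and JCHAIN (adjusted p = 0.228) was not. Over the 9 tumors in neither group only 3 of the 17 genes had a positive slope, and MS4A1 had -1.63 per unit of score.

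Genes of leukocytes at large rose in 11 of 17 members tested, with a median of 1.11. ITGAL, the integrin chain of LFA-1, ranged from 0.19 to 2.84 (median 1.24) in the T-cell-rich and from -1.34 to 0.09 (median -0.62) in the T-cell-poor tumors, without overlap (slope 0.75 ± 0.08 SE, adjusted p = 7.69e-08). IKZF1, a lymphoid transcription factor, also had separate groups, with a difference of 1.79 (adjusted p = 1.97e-04). RAC2, a GTPase of blood cells, differed by 1.88, CD53 by 1.62 and PTPRC, the common leukocyte antigen CD45, by 1.42 (adjusted p = 3.56e-05, 3.05e-05 and 2.05e-05). In the comparison of groups of 10, 7 of the 17 were called.

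Few myeloid genes were called, and several macrophage genes missed the call by size alone. Among 18 macrophage and monocyte genes, MARCO, a scavenger receptor (difference 2.01, adjusted p = 0.0256), and CCR2, the receptor that draws monocytes from blood (1.69, adjusted p = 0.033), were called. Neither call held without Da6, where the adjusted p was 0.245 and 0.235, and MARCO was also lost without Za or Po and CCR2 in 7 of the 29 fits that left out 1 tumor. Neither was called with the tumors as groups of 10. All 18 differences were above 0, and 14 of the 18 genes had an unadjusted p under 0.05, against 2689 of 19233 over all genes. The complement genes C1QA, C1QB and C1QC, the adaptor TYROBP and AIF1 passed the p threshold (0.0448, 0.0145, 0.0191, 0.0183 and 0.0191) with differences of 0.78 to 0.87, under the 1 required. Without Da6 none of these 5 passed it (adjusted p = 0.0697 to 0.149). CSF1R, the receptor that macrophages need to survive, differed by 0.65 (adjusted p = 0.123). Among 8 dendritic-cell genes CCR7, ZBTB46 and IRF8 were called, at 1.60, 1.40 and 1.12. ZBTB46 and IRF8 were lost without Da6 (adjusted p = 0.119 and 0.051), and ZBTB46 in 5 of the 29 fits in all. Of 11 neutrophil genes 1 was called, as was 1 without Da6 and 1 with the tumors as groups of 10. CSF3R and S100A8, which mark neutrophils, differed by 1.37 and 1.91 and were not called (adjusted p = 0.235 and 0.15). None of 6 mast-cell and eosinophil genes was called.

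Genes that interferon-gamma induces, and the chemokines that draw effector T cells, rose in 7 of 14 members tested, with a median of 1.37. CCL5, a chemokine made by T cells themselves, ranged from 0.54 to 3.48 (median 1.07) in the T-cell-rich and from -1.63 to 0.12 (median -0.79) in the T-cell-poor tumors. It was the one member of this list without overlap (slope 0.91 ± 0.09 SE, adjusted p = 1.70e-07). CCL4, of the same kind, differed by 2.48. GBP5, GBP6 and GBP1, guanylate-binding proteins that interferon-gamma induces, differed by 2.15, 1.76 and 1.61 (adjusted p = 6.62e-05, 3.24e-04 and 1.90e-04). GBP5 and GBP6 reached 4.82 and 4.16 in the T-cell-rich group. SOCS1, an inhibitor of cytokine signalling, differed by 1.75 and lost its call without Da6 (adjusted p = 0.0697). With the tumors as groups of 10, 3 of the 14 genes were called, and GBP5, GBP6, GBP1 and SOCS1 were not (adjusted p = 0.0675, 0.118, 0.0643 and 0.0922). IRF1, another target, differed by 0.20 (adjusted p = 0.52), and CXCR6, a receptor of tissue-resident T cells, by 0.41 (adjusted p = 0.362). CXCL9, CXCL10 and CXCR3 were not analysed here.

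Antigen-presentation and type I interferon genes lay close to the middle of all genes. Of 16 genes of MHC class I and peptide loading 1 was called, NLRC5, the activator of class I genes (difference 1.85, slope 0.75 ± 0.14 SE, adjusted p = 9.67e-04), and the list median was 0.06. TAP1, the peptide transporter, ranged from -0.71 to 1.42 in the T-cell-rich and from -0.39 to 0.98 in the T-cell-poor tumors (difference 0.18, adjusted p = 0.64). Of 14 class II genes DLA-DOA alone was called (1.12, adjusted p = 0.0134), and its difference fell to 0.99 without tumor 4, just under the 1 required. CIITA, the activator of class II genes, differed by -0.39 and CD74, the invariant chain, by -0.50 (adjusted p = 0.918 and 0.88). Of 20 type I interferon-stimulated genes none was called in limma and none had an unadjusted p under 0.05, with a list median of 0.08. ISG15, one of them, spread as widely within the groups as across them, at -3.34 to 3.27 (median 0.42) in the T-cell-rich and -1.93 to 1.92 (median 0.29) in the T-cell-poor tumors.

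Chemokines and cytokines of organized lymphoid tissue were called in 7 of 17 members, with a median of 1.14, and most of these calls were weak. IL21R, a cytokine receptor of lymphocytes, differed by 1.87 (adjusted p = 1.79e-05) and was the only member called without Da6. Between the groups of 10, 2 members were called. CCL20, which draws cells that carry CCR6, differed by 3.06 but with overlapping groups, -1.23 to 4.83 against -3.56 to 4.12 (adjusted p = 0.0491). It was called in 10 of the 29 fits that each left out 1 tumor, and its slope of 1.20 was 1.28 without Da6. LTB, a lymphotoxin chain, differed by 1.32 (adjusted p = 0.0453) and was called in 14 of those 29. Without Da6 its slope was 0.63, against 0.59, with an adjusted p of 0.0951. IL16 differed by 1.35 (adjusted p = 0.00408, and 0.0762 without Da6). CCL19, a chemokine of T-cell zones, ran from -2.94 to 3.31 against -2.94 to 0.08 and was not called (difference 1.62, adjusted p = 0.541). CCL21 and CXCL13 were not analysed here.

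**Figure D4:**
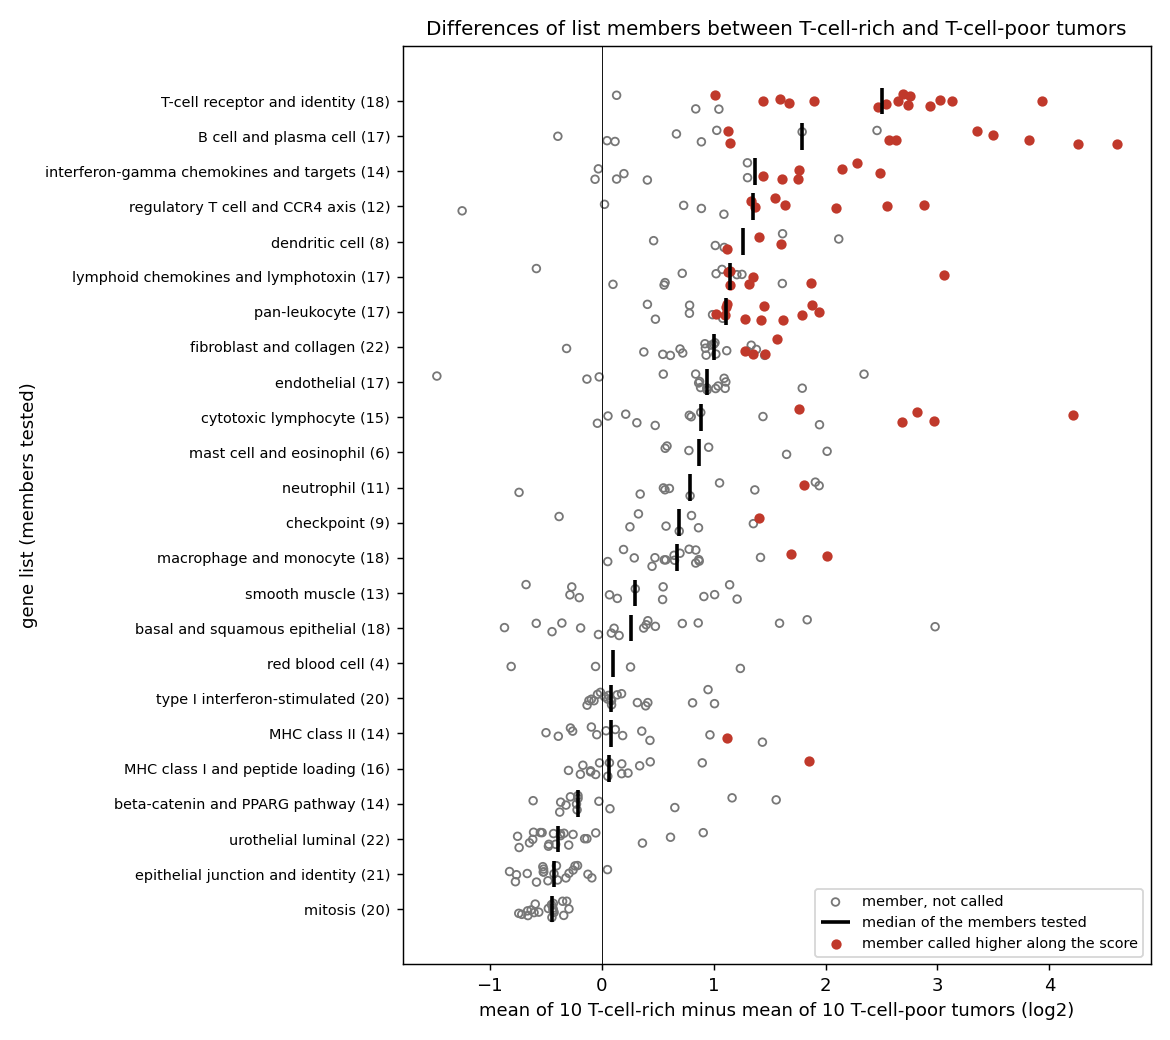
Difference between the means of the 10 T-cell-rich and the 10 T-cell-poor tumors (log2) for each tested member of 24 gene lists; filled points were called along the score and black bars are list medians. Medians run from 2.50 for T-cell receptor and identity genes to -0.45 for mitosis genes.

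Epithelial genes leaned lower in the T-cell-rich tumors but none was called. Of 21 genes of epithelial junctions and identity, 20 had a negative difference, with a median of -0.43, and the largest of these in size was -0.82. CDH1, the adhesion protein E-cadherin, ranged from -1.01 to 0.46 (median -0.49) in the T-cell-rich and from -0.33 to 0.90 (median 0.47) in the T-cell-poor tumors, and it passed the p threshold (0.0297) with a difference of -0.76. Its adjusted p was 0.112 without Da6 and 0.0881 with the tumors as groups of 10. EPCAM differed by -0.39 and CLDN7 by -0.52 (adjusted p = 0.739 and 0.433). Of 22 luminal urothelial genes, 19 had a negative difference, with a median of -0.39. GATA3, PPARG and FOXA1, factors of luminal urothelium, differed by -0.75, -0.55 and -0.37 (adjusted p = 0.108, 0.179 and 0.385). Without Da6 the differences of PPARG and FOXA1 were -0.32 and -0.16. UPK2, an uroplakin of the bladder surface, differed by -0.65. Basal and squamous genes had a median of 0.27 over 18 members, none of them called. PI3, an inhibitor of elastase, differed by 2.98 (adjusted p = 0.151), and KRT14, a basal keratin, by 0.41 with T-cell-rich values from -2.17 to 9.54 and by -0.50 without Da6.

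All 20 mitosis genes had a negative difference, between -0.74 and -0.29, and none was called in limma, with 1 at an unadjusted p under 0.05. TOP2A, a topoisomerase of dividing cells, ranged from -1.48 to 0.65 against -0.76 to 1.25. Over the 9 tumors in neither group all 20 had a positive slope. Of 14 genes of the beta-catenin and PPARG pathways none was called, and the list median was -0.22.

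Stromal genes were higher in the T-cell-rich tumors on average and overlapped widely. Of 22 fibroblast and collagen genes, 21 had a positive difference, against 10039 of 19233 over all genes, with a median of 1.01. Over the 9 tumors in neither group only 5 of the 22 had a positive slope, with a median of -0.61 per unit of score. Along the whole score 4 were called: CXCL14 (1.56), THY1 (1.45), ZEB1 (1.36) and ZEB2 (1.28). THY1 is also found on T cells in some species, and ZEB2 is used by cytotoxic lymphocytes. Only ZEB2 stayed called without Da6 (adjusted p = 0.0456, against 0.165, 0.185 and 0.172 for the others). In the 29 fits that left out 1 tumor, CXCL14 was lost in 13 and THY1 and ZEB1 in 4 each, and none of the 4 was called with the tumors as groups of 10. COL1A1, the main fibrillar collagen, ran from -2.94 to 2.23 against -1.67 to 2.16 (difference 0.72, adjusted p = 0.875), and its value in Da6 was -1.35. The mean of the 22 genes lay between -1.25 and 2.13 in the T-cell-rich and between -1.32 and 1.23 in the T-cell-poor tumors. With this mean as a covariate 246 genes were called higher and 10 lower, and 238 of the 246 were among the 420. Of the 15 T-cell identity genes called, 12 remained with the covariate, as did all 5 cytotoxic and 7 of 9 B-cell and plasma-cell genes. All 11 leukocyte genes and all 7 interferon-gamma genes also remained, as did 5 of 7 regulatory T-cell and 2 of 3 dendritic-cell genes. Of the 7 chemokines and cytokines of lymphoid tissue 1 remained, and none did of the 2 macrophage genes and the 1 class II gene. The 4 fibroblast and collagen genes also lost their calls, but the covariate is a mean that includes them, so this fit cannot test them. Some slopes that lost their call changed little with the covariate, from 0.59 to 0.55 for LTB, from 1.20 to 1.07 for CCL20 and from 0.79 to 0.67 for MARCO. Others fell further, from 0.65 to 0.45 for CCR2, from 0.55 to 0.37 for IL16 and from 0.50 to 0.29 for ZBTB46. Of 17 endothelial genes none was called, with a median of 0.94, and 2 of the 17 had a positive slope over the 9 tumors in neither group. PECAM1 differed by 1.10 (adjusted p = 0.0837), and SELE, an adhesion molecule of inflamed endothelium, by 2.34 (adjusted p = 0.0647). None of 13 smooth-muscle and 4 red-cell genes was called. The part of stroma in the other differences was not tested beyond the covariate.

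Outside all lists, the genes with a name and the largest differences among those called higher were, besides the receptor segments above, ZNF831 (3.19), NLRC3 (3.03), SCML4 (2.97), NUGGC (2.91), GPR83 (2.82) and IKZF3 (2.73). IKZF3, the lymphoid factor Aiolos, ranged from 0.28 to 3.97 against -2.29 to 0.23, and NLRC3, a damper of innate signalling in lymphocytes, from 0.39 to 4.11 against -2.60 to -0.14. Neither gene's groups overlapped (adjusted p = 1.02e-05 and 6.05e-06). ZNF831 reached 3.44 in tumor 11, which was T-cell-poor, so the highest values of this gene lay in both groups. GPR83, a receptor known from regulatory T cells, ranged from -0.10 to 4.66 against -3.17 to 0.60 (adjusted p = 7.10e-04).

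The 4 named genes that fell were TMEM141, TSPYL4, GRB7 and IFNK. GRB7, an adaptor of receptor kinases whose gene lies beside ERBB2, ranged from -1.37 to 0.02 (median -0.24) in the T-cell-rich and from -0.12 to 2.02 (median 0.48) in the T-cell-poor tumors. It fell by 0.38 per unit of score on the log2 scale (SE 0.08, adjusted p = 0.00318). IFNK, an interferon made by epithelium, differed by -1.02 (adjusted p = 0.0421). TMEM141 and TSPYL4 differed by -1.29 and -1.09 (adjusted p = 0.0087 and 0.0129). None of these 4 was called without Da6, where TMEM141, TSPYL4 and IFNK had adjusted p of 0.0891, 0.136 and 0.117, and GRB7 kept its p (0.0386) with a difference of -0.97, under the 1 required. With the tumors as groups of 10 only GRB7 of the 4 was called. GRB7, with a difference of -0.91, and TSPYL4 were also lost without tumor 11, and IFNK was lost in 14 of the 29 fits. ERBB2 itself differed by -0.53 and was not called (adjusted p = 0.177).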

How the data were processed

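RNA from 29 tumors and 4 normal mucosa samples went through 1 sequencing batch. Reads were aligned by the authors to CanFam3.1 with COBWeb in Strand NGS. The authors deposited 2 tables of log2 values, 1 normalized by TMM (25096 genes) and 1 by DESeq (25139 genes), each centred on the median of a gene across the 33 samples. Because neither table holds counts, no count model was used. Depth per sample is unknown, and precision is limited by the value of 1 read and by the number of tumors. No column of values was left unmapped (0).

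Members and gene lists were chosen with earlier results of these data known. Genes above their shared lowest value in at least 10 tumors were tested in the TMM table with limma 3.58.1 (R 4.3.3; slope on the continuous score, eBayes with trend, Benjamini-Hochberg), after a test on simulated data. The groups of 10 are descriptions. Named genes are a list of key genes, the 4 called members of each list with the largest differences, members whose groups did not overlap, and up to 10 called genes with the largest differences each way outside the lists; other list members, and the segments TRDC and IGHM, were named after their values were seen. A few list members are not reported here by name and are included in the counts of their lists. Gene IDs were matched to a RefSeq table for names (11166 of 11430 Entrez IDs). Alternatives were the other table that the authors deposited, other scores, groups, filters, covariates and tumors left out; leaving out each tumor was added after the data were seen. Figures were drawn with matplotlib 3.10.9.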

Additional observations from a re-analysis of the deposited data

Results flagged for a closer look

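In 191 sets of values, each of 1 gene or of the score in 1 group, 28 had a highest or lowest sample far from its nearest neighbour for the size of the group's range. Chance flags about 1 in 20 such sets when they are independent. These were not independent, because many of the genes were chosen for following the score, on which Da6 stands apart. The rate is therefore no yardstick for the 28, of which 13 concerned tumor Da6.

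In the T-cell-rich tumors Da6 was far above the others in the T-cell score (2.94, next 1.68), in the T-cell genes CD3G (3.73) and TRAC (4.33), and in IL2RA (3.21). It was also far above them in CD79A (6.85), POU2AF1 (7.69), NUGGC (6.35), GPR83 (4.66) and RAC2 (3.41). Among interferon-gamma targets and ligands the same held for NLRC5 (3.59), GBP6 (4.16, next 1.23) and CD274 (1.96, next 0.51). PPARG was far lower in Da6 (-2.33, next -0.68). CCR4 was far lower in tumor 15 than in the other T-cell-rich tumors (-1.80), and EPCAM was far higher in tumor 4 (2.21).

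In the T-cell-poor tumors, tumor 11 was far above the others in POU2AF1 (5.26), ZNF831 (3.44) and ERBB2 (2.25, next 0.49). IGKV2D-26 was far higher in tumor 18 (5.00, next -0.78), TRBV16 (-0.086) and CIITA (2.15) in tumor Ab, and TAP1 (0.98) in tumor 9, which had the third largest share of olfactory receptor genes lying over their floor. Tumor Mis was far below the others in LAT (-4.39), TRAC (-2.63), RAC2 (-2.47) and GBP6 (-3.80). CCL4 was far lower in tumor 7_733858 (-5.26), and TMEM141 in tumor 9 (-0.73).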

How the results depend on the processing

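Against 420 genes called higher and 15 called lower, the count of higher genes moved by over 1.5 times with the 20 tumors as 2 groups (217 higher, 3 lower), with the fibroblast and collagen mean as a covariate (246 higher), without tumors Da6 and 7_733858 (260 higher, 1 lower) and within the 9 tumors in neither group (0 higher, 0 lower by limma, with 863 at an unadjusted p under 0.05). The lower count also moved without the 3 tumors with the highest olfactory receptor share (9) and with no threshold on the difference (50). Leaving out each tumor gave 209 to 488 higher and 2 to 20 lower genes. The cause was not tested. With the DESeq-normalized table, the same fit gave 461 higher genes, 414 of them shared. A score from other T-cell genes was also to hold CD247, which the table does not name, and it was run with the remaining 4 genes (546 higher). Of 56 called genes chosen by the naming rule, 38 were called in every fit that left out 1 tumor. Within the 9 tumors in neither group, 19 of the called genes chosen by the naming rule had a slope of the opposite sign, per unit of score: IGKV2D-26 (-0.82), MS4A1 (-1.63), MZB1 (-2.53), CD79A (-0.42), POU2AF1 (-1.14), NUGGC (-1.63), GPR83 (-1.16), IKZF3 (-0.30), ZAP70 (-0.42), TNFRSF4 (-1.01), IKZF1 (-0.19), CCR2 (-0.54), THY1 (-0.58), ZBTB46 (-1.41), ZEB1 (-0.71), IL16 (-0.037), DLA-DOA (-0.40), GRB7 (0.11) and TSPYL4 (0.43). The same held for JCHAIN (-1.64), BCL11B (-1.44), CD79B (-0.71), TNFRSF18 (-0.53) and BLK (-0.52), which that rule did not choose. No called gene chosen by that rule changed sign under any other alternative. No paired analysis was possible because each tumor came from its own dog and no replicate numbers are shared between groups.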

Other observations

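The genes around ERBB2 were high together in 1 T-cell-poor tumor. Tumor 11 had the highest value of all 29 tumors for 14 of 17 tested genes in a stretch of ERBB2 and the 8 named genes on each side of it in the RefSeq order, a set looked at after its values were seen. The values of the 14 genes in tumor 11 ran from 1.74 to 7.08, with 2.25 for ERBB2, 2.02 for GRB7, 1.85 for STARD3, 1.81 for CDK12 and 2.00 for MED24. In the other 28 tumors the highest value was 0.70 for ERBB2, 1.15 for GRB7, 0.67 for STARD3 and 0.50 for CDK12. Less distinct were PNMT, the gene at 7.08, which reached 5.65 in another tumor, and PPP1R1B, at 4.80 in tumor 11 and up to 3.03 elsewhere. The exceptions in the stretch were CSF3, GSDMA and the lymphocyte factor IKZF3, which lay at 0.00 in tumor 11. Gene copy number was not measured.

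Tumor Da6, the one with the highest T-cell score, had the highest KRT14 of all tumors (9.54) and IDO1 at 4.91, below the 5.55 of tumor 5, while its ERBB2 and GRB7 values (-1.24 and -1.37) were the lowest of the T-cell-rich tumors. Tumor Za, second by score at 1.68, had B-cell values near the gene medians, with 0.74 for MS4A1, -0.07 for MZB1 and -0.04 for CD79A.

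Over the 9 tumors in neither group, all 20 type I interferon-stimulated genes and all 20 mitosis genes had a positive slope on the T-cell score, with median slopes of 2.30 and 1.21 per unit. No gene passed the adjusted threshold in those 9 tumors, and the members of each list were measured in the same libraries.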
